A study of Mus musculus with 6 samples.

Results

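Cxcl1, Cxcl2, Cxcl3, Cxcl5, Ppbp and Pf4 form a run of CXC chemokine genes on mouse chromosome 5, and Cxcl9 and Cxcl10 lie further along the same chromosome. These 8 genes of the 36706 in the deposited tables are described here across bone marrow-derived dendritic cells given interferon gamma (IFN-γ) with or without 4-octyl itaconate (4-OI). They were chosen by name, with their levels in this comparison already known, so their values are a description and carry no test.

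Chemokines are small secreted proteins that guide leukocytes along a gradient. Cxcl1, Cxcl2, Cxcl3, Cxcl5 and the product cut from the Ppbp precursor carry an ELR motif (glutamate, leucine, arginine) ahead of their first cysteines, bind the receptor CXCR2 and attract neutrophils. Pf4, platelet factor 4, sits among them and lacks the ELR motif. Cxcl9 and Cxcl10 also lack it, bind CXCR3 on activated T cells and natural killer cells, and are known as genes induced by IFN-γ.

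Messenger RNA was sequenced in 6 libraries from wild-type (WT) cells grown out of bone marrow in 20 ng/mL GM-CSF, with the medium changed on day 3 and day 5. In 3 libraries the treatment was IFN-γ alone and in 3 it was IFN-γ+4-OI, 4-OI being a cell-permeable derivative of the metabolite itaconate. Both groups received IFN-γ and no untreated cells were given, so all values are of 4-OI on top of IFN-γ. The labels state neither dose, duration, mouse strain nor whether libraries came from separate animals, and a p-value here reflects only how these libraries vary, which may be technical variation. The titles call the cells BMDMs while the cell type label and the growth protocol call them dendritic cells. Markers of both kinds were present, with macrophage markers summing to 2128 to 2203 CPM (counts scaled to library size) with IFN-γ and 2699 to 2837 with IFN-γ+4-OI, and conventional dendritic cell markers to 7346 to 8688 and 6070 to 6888. Cd74, H2-Aa and H2-Ab1 carried most of the dendritic cell sum. Their means were 3009, 2034 and 1305 CPM with IFN-γ and 2667, 1364 and 893 CPM with IFN-γ+4-OI. Flt3 and Zbtb46 were far lower, at 16.2 and 15.5 CPM with IFN-γ and 10.0 and 11.4 CPM with IFN-γ+4-OI. Xcr1 and Cd209a were below 1 CPM in every library. By the edgeR test, 8 of 13 tested dendritic cell markers fell with 4-OI and 1 rose, and of 10 macrophage markers 2 rose and 2 fell. Over all tested genes 22.7% were called higher and 25.4% lower, so the macrophage counts were near those shares. Of 9 monocyte markers 6 fell (sums of 6774 to 7645 and 5691 to 6764 CPM), and all 7 tested mast cell and basophil markers fell (346 to 378 and 106 to 114 CPM). Of 3 tested endothelial markers 2 fell (121 to 136 and 61.2 to 68.8 CPM). The part of these shifts in the chemokine levels was not tested.

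Libraries held 19656368 to 29244717 counts. The first principal component held 82.6% of the variance and separated both groups. IFN-γ replicate 1 and IFN-γ+4-OI replicate 3 stood apart from the other libraries of their group on the second component, which held 11.4%, and fold changes of the 8 genes are given with and without these libraries. Of 14011 genes tested with edgeR, 3181 were called higher with 4-OI (22.7%) and 3555 lower (25.4%) at an adjusted p of 0.05, 48.1% in all. Scaled by total counts alone, the median log2 fold change of all genes moved from -0.0082 to -0.27 and the calls to 1719 higher and 5452 lower.

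All 5 CXCR2 ligands were higher with 4-OI in every library, by fitted folds from 9.93 to 86.9. Pf4 was higher by 2.56-fold, and the values of Cxcl9 and Cxcl10 overlapped between groups. The groups did not overlap for 6 of the 8 genes, against 28.9% of all tested genes that were higher without overlap. By fitted fold all 5 CXCR2 ligands were at least 8-fold higher, as were 0.742% of tested genes. Nothing is read from either count because the genes were chosen on this comparison. All 8 passed the filter on low counts. By CPM without TMM scaling, on which the filter works, all 8 were above its level of 0.400 in each of the 3 IFN-γ libraries. In bulk RNA, more cells of a kind and more RNA per cell cannot be told apart.

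**Figure D1:**
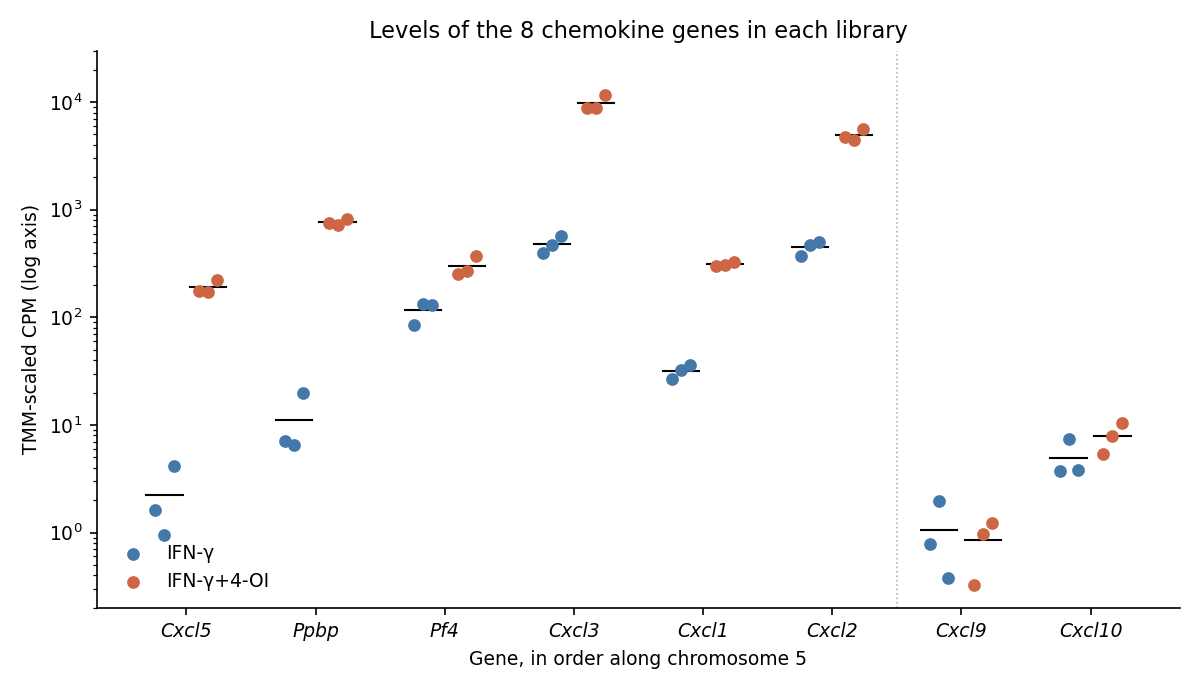
TMM-scaled CPM (log axis) of the 8 chemokine genes in the 3 IFN-γ and the 3 IFN-γ+4-OI libraries, in order along chromosome 5, with bars at the group means. The groups are separate for the 6 genes left of the dotted line and overlap for Cxcl9 and Cxcl10.

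Cxcl3, the most abundant of the 8, is a neutrophil attractant of the same close family as Cxcl1 and Cxcl2 (chromosome 5, 90933960 to 90935952, plus strand; coordinates of genes are as the deposited tables give them). It stood at 396, 469 and 575 CPM with IFN-γ and at 8741, 8834 and 11632 CPM with IFN-γ+4-OI. The lowest 4-OI library was far above the highest IFN-γ library, and replicate 3 was the highest in each group. Group means were 480.1 ± 90.1 and 9736 ± 1643 CPM (SD, n = 3), a log2 fold change of 4.34 ± 0.20 (SE) or 20.3-fold, and 16.8-fold without both libraries that stood apart. Per length, in TPM (relative abundance corrected for transcript length), Cxcl3 ranked between 139 and 169 among all genes of an IFN-γ library and 4 in each 4-OI library.

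Cxcl2, known as MIP-2 and a principal neutrophil attractant of mouse macrophages (chromosome 5, 91051758 to 91053797, plus strand), stood at 374, 469 and 499 CPM with IFN-γ. With IFN-γ+4-OI it reached 4689, 4441 and 5604 CPM. The groups lay far apart, with means of 447 ± 65.3 and 4911 ± 612 CPM. The log2 fold change was 3.46 ± 0.16, or 11.0-fold, and 9.43-fold without both libraries that stood apart. By TPM its rank moved from between 163 and 183 to between 9 and 10. Cxcl2 and Cxcl3 have related transcripts: they shared 126 stretches of 50 bases, 5.84% of those in Cxcl2, so some short reads could be assigned to either.

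Cxcl1, known as KC and made by many cell types in inflammation (chromosome 5, 91039104 to 91040980, plus strand), was lower in level than both. It stood at 26.5, 32.5 and 35.8 CPM with IFN-γ and at 302, 308 and 330.0 CPM with IFN-γ+4-OI, again without overlap. Means were 31.6 ± 4.72 and 313 ± 14.6 CPM, a log2 fold change of 3.31 ± 0.13 or 9.93-fold, and 8.96-fold without both libraries that stood apart. As a ratio of mean TPM its fold was 7.65. Its 4-OI libraries differed by only 1.09-fold between the highest and the lowest, the least of the 8 genes.

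Cxcl5, known as LIX and best described from epithelial and stromal cells (chromosome 5, 90907157 to 90909484, plus strand), was close to the limit of detection with IFN-γ. It stood at 1.62, 0.950 and 4.16 CPM there, which were 41, 28 and 98 counts, and at 175, 172 and 223 CPM with IFN-γ+4-OI. All 4-OI libraries lay far above all IFN-γ libraries, while IFN-γ replicate 3 held 4.38 times the level of replicate 2. Means were 2.24 ± 1.69 and 190.0 ± 28.6 CPM, a log2 fold change of 6.44 ± 0.43 or 86.9-fold. It was 72.5-fold without both libraries that stood apart and 150.6-fold without IFN-γ replicate 3, so the size of this difference depends on that library. The summed level of the stromal markers was 42.6 CPM in IFN-γ replicate 1, 4.48 and 5.05 in the other IFN-γ libraries and 1.74 to 2.27 with IFN-γ+4-OI. Epithelial markers summed to 107 to 123 CPM with IFN-γ and to 27.9 to 29.8 with IFN-γ+4-OI, almost all of it from Cdh1 (99.5 ± 10.1 and 23.5 ± 0.461 CPM) and Epcam (11.8 to 15.7 and 4.34 to 5.81 CPM). Krt8 and Krt18 were below 1 CPM in every library, and Krt5 and Krt14 had no count. The sums of both lists were lower in the IFN-γ+4-OI group, in which Cxcl5 was higher. Among the IFN-γ libraries the order was mixed. Replicate 2 had the lowest sums and also the lowest Cxcl5, while replicate 1 had the highest sums and less Cxcl5 than replicate 3. The part of such cells in the level of Cxcl5 was not tested.

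Ppbp encodes pro-platelet basic protein, the precursor that proteases of neutrophils trim to the CXCR2 ligand NAP-2 (chromosome 5, 90916377 to 90917922, plus strand). It stood at 7.16, 6.59 and 19.7 CPM with IFN-γ and at 749, 724 and 828 CPM with IFN-γ+4-OI. As with Cxcl5, IFN-γ replicate 3 was the highest of its group and far below every 4-OI library. Means were 11.2 ± 7.43 and 767 ± 54.1 CPM, a log2 fold change of 6.11 ± 0.44 or 69.2-fold. It was 57.9-fold without both libraries that stood apart and 113-fold without IFN-γ replicate 3. Its TPM rank moved from between 2952 and 6196 to between 121 and 130.

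Pf4, stored with Ppbp protein in platelet granules (chromosome 5, 90920294 to 90921242, plus strand), begins 2371 bases after Ppbp ends. It stood at 85.5, 134 and 129 CPM with IFN-γ and at 255, 270 and 368 CPM with IFN-γ+4-OI, without overlap. Means were 116 ± 26.8 and 298 ± 61.5 CPM, a log2 fold change of 1.36 ± 0.20 or 2.56-fold, and 1.99-fold without both libraries that stood apart. Before 4-OI it was the third most abundant of the run per length, at 449.6 ± 59.3 TPM against 23.4 ± 14.6 for Ppbp, and with 4-OI Ppbp passed it, at 1249 ± 36.8 against 886 ± 97.1 TPM.

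Both genes are known from megakaryocytes and platelets, so markers of these cells were read beside them. The 14 markers summed to 113 to 117 CPM with IFN-γ and 116 to 122 CPM with IFN-γ+4-OI. Of 9 tested, Clec1b and Vwf rose and 4 fell, beside 22.7% and 25.4% of all tested genes. The median of the 9 was -0.61 on the log2 scale, so the even sum does not mean that each marker held its level. Gp1bb, Gp9, Gp5, Gata1 and Tubb1 were below 1 CPM in every library. The sum of these markers changed far less than Ppbp.

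Cxcl9 (MIG; chromosome 5, 92469190 to 92475938, minus strand) was nearly absent from these cells although all had received IFN-γ. It stood at 0.791, 1.97 and 0.382 CPM with IFN-γ and at 0.326, 0.977 and 1.24 CPM with IFN-γ+4-OI, and the groups overlapped. With 87 counts over the IFN-γ libraries and 63 over the others, the log2 fold change was -0.30 ± 0.61. Its sign rested on single libraries: it was 0.57 without IFN-γ replicate 2 and 0.05 without IFN-γ+4-OI replicate 1. Leaving out both libraries that stood apart gave -0.81.

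Cxcl10 (IP-10; chromosome 5, 92494497 to 92496748, minus strand, within the span of Art3 but sharing no exon with it) was somewhat higher in level. It stood at 3.72, 7.37 and 3.78 CPM with IFN-γ and at 5.32, 7.93 and 10.4 CPM with IFN-γ+4-OI. IFN-γ replicate 2 lay above the lowest 4-OI library, and the log2 fold change was 0.67 ± 0.32, or 1.59-fold, and 0.25 without both libraries that stood apart. Summed, the CXCR3 ligands stood at 4.51, 9.34 and 4.16 CPM with IFN-γ and at 5.64, 8.90 and 11.6 CPM with IFN-γ+4-OI, and the means had a ratio of 1.45. Within each group the libraries of Cxcl10 differed by 1.95- to 1.98-fold and those of Cxcl9 by up to 5.15-fold, so a difference smaller than that spread would not show here.

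Summed, the 5 CXCR2 ligands stood at 805, 978 and 1134 CPM with IFN-γ and at 14658, 14480 and 18617 CPM with IFN-γ+4-OI. The means of 972 ± 164 and 15918 ± 2339 CPM differed 16.4-fold, or 13.8-fold without both libraries that stood apart. As a share of all counts the sum went from between 0.0905 and 0.123% to between 1.37 and 1.60%. Each of the 5 was highest in IFN-γ replicate 3 within its group, and each of the 8 genes was highest in IFN-γ+4-OI replicate 3, the library with the lowest TMM scaling factor (0.861). On the deposited TPM, which carry no such factor but are scaled by gene length, Cxcl1 and Ppbp were lowest in that library. As a share of all counts, also without the factor, Ppbp was highest there (0.0712%, against 0.0703 and 0.0684%). Cxcl1 lay between the others by that share (0.02840%, against 0.02835 and 0.02909%).

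Per length, the order of the genes changed. With IFN-γ it was Cxcl3 (1079 ± 141 TPM), Cxcl2 (945 ± 58.5), Pf4, Cxcl1 (75.7 ± 5.72), Ppbp, Cxcl10 (10.2 ± 3.53), Cxcl5 (3.10 ± 2.20) and Cxcl9 (0.814 ± 0.581). The libraries of Cxcl3 and Cxcl2 overlapped there, as did those of Ppbp and Cxcl10 and those of Cxcl5 and Cxcl9. With IFN-γ+4-OI it was Cxcl3 (16761 ± 1198 TPM), Cxcl2 (7970 ± 294), Ppbp, Pf4, Cxcl1 (579 ± 27.4), Cxcl5 (201 ± 10.9), Cxcl10 (12.5 ± 3.11) and Cxcl9 (0.504 ± 0.257). No neighbours in that order overlapped.

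Among the 6 genes of the run, Cxcl3 made up 39.6 to 43.3% of the summed TPM with IFN-γ and 59.4 to 61.9% with IFN-γ+4-OI. The shares of Cxcl2 (35.3 to 37.7% against 28.0 to 29.9%), Pf4 (15.9 to 19.6% against 3.00 to 3.39%) and Cxcl1 (2.87 to 3.03% against 1.87 to 2.25%) were smaller with 4-OI. Ppbp went from 0.523 to 1.40% to 4.14 to 4.78%, and Cxcl5 from at most 0.193% to at least 0.725%. A smaller share is not a lower level: Cxcl2, Pf4 and Cxcl1 themselves were higher in every 4-OI library.

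**Figure D2:**
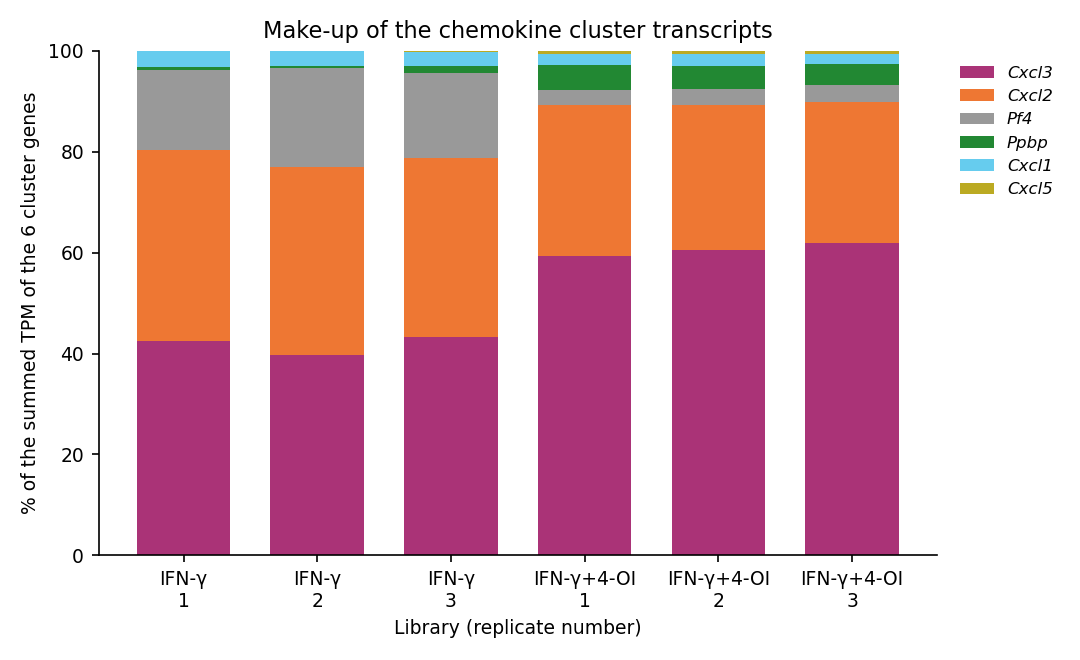
Share (%) of each of the 6 cluster genes in their summed TPM, 1 bar for each library. Cxcl3 and Ppbp take more of the bars with IFN-γ+4-OI, and Pf4 falls from 15.9 to 19.6% to 3.00 to 3.39%.

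The stretch before a gene's start shows which sequence the genes that moved together have in common. The 150 bases before the RefSeq start (GRCm38.p6) of Cxcl1, Cxcl2, Cxcl3 and Ppbp are shown, read along each gene's strand and with every match to the NF-κB motif, on either strand, in capitals. NF-κB is the factor best known for switching on these genes in inflammation.
Cxcl1, chr5:90891095-90891244, plus strand: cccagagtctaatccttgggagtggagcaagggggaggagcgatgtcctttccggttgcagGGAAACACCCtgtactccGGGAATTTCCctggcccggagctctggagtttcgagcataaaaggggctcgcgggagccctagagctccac
Cxcl2, chr5:90903749-90903898, plus strand: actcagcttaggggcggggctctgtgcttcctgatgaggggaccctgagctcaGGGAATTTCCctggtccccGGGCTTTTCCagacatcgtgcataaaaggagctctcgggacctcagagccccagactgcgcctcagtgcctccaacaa
Cxcl3, chr5:90785951-90786100, plus strand: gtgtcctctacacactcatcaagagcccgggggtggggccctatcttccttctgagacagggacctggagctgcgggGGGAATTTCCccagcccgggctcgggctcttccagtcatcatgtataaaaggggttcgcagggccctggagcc
Ppbp, chr5:90768368-90768517, plus strand: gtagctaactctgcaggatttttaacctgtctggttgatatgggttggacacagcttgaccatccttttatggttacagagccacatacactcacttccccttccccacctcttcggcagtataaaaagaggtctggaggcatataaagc

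Cxcl1 held matches at 89 and 71 bases before the start, Cxcl2 at 97 and 78, and Cxcl3 at 73, each within 250 bases upstream, while Ppbp held none. A match occurred in 4.109% of 32851 RefSeq promoters over the same 250 bases. The 10 letters nearest to the start of Cxcl1 and Cxcl3 and the farther match of Cxcl2 were the same, gggaatttcc. Cxcl1, Cxcl2 and Cxcl3 also shared ataaaagg on the plus strand, 34, 57 and 29 bases before the start, a string chosen after the sequences had been read and present in 1.005% of promoters. Ppbp and Cxcl3 held tataaa (plus strand, 7.592% of promoters) 30 bases before the start. The promoters of Cxcl1, Cxcl2 and Cxcl3, with folds of 9.93 to 20.3, thus shared letters that the more strongly raised Ppbp did not have in this window. A match is not a bound site, and no binding was measured here.

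Pf4 (150 bases) and the CXCR3 ligands (250 bases) are shown in the same way, since the latter hold the same motif and did not move with the CXCR2 ligands.
Pf4, chr5:90772285-90772434, plus strand: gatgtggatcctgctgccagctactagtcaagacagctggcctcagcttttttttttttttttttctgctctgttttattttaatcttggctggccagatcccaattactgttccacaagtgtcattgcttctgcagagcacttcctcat
Cxcl9, chr5:92328080-92328329, minus strand: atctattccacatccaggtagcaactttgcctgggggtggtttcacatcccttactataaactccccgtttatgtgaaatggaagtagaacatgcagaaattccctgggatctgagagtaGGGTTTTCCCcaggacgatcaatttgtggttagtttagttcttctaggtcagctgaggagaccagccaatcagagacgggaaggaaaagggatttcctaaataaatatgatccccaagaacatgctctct
Cxcl10, chr5:92348890-92349139, minus strand: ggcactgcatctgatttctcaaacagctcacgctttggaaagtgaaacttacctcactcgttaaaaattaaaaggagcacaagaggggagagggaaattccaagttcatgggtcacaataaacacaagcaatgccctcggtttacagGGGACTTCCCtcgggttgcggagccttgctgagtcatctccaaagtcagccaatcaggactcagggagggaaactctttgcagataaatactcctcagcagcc

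Cxcl9 and Cxcl10 each held 1 match to these NF-κB letters, at 130 and 103 bases before the start, and Pf4 none. Strings that differ from the letters were not counted, such as gggaaattcc in the stretch of Cxcl10, which is 1 letter off. So 3 of 4 CXCR2 ligand promoters and both CXCR3 ligand promoters held these letters in this window. The part of NF-κB in the levels of these genes was not tested. Cxcl10 also held the interferon-stimulated response element (ISRE) at 213 bases (2.977% of promoters), the AP-1 motif tgantca at 74 bases (6.749%) and, overlapping that AP-1 match, the antioxidant response element (ARE) letters tgacnnngc (10.16%). No CXCR2 ligand promoter held the ISRE or ARE letters, 1 (Ppbp, 204 bases before the start) held the AP-1 motif, and none of the 7 held the IFN-γ activated site ttcnnngaa (7.02%) in this window. The C/EBP letters ttnngnaa, present in 36.85% of promoters, matched once in Cxcl2 and 2 times each in Pf4, Cxcl9 and Cxcl10. All motifs but the TATA strings were searched on both strands. Cxcl5 has no promoter shown.

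**Figure D3:**
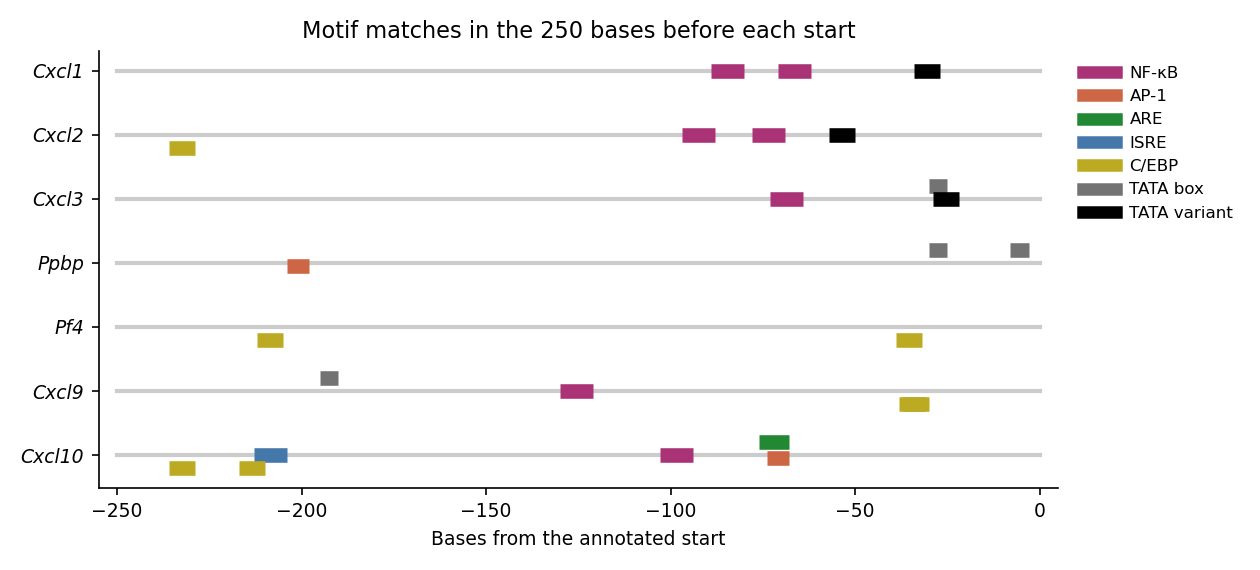
Matches to 7 motifs in the 250 bases before the RefSeq start of 7 genes, by distance from the start in bases. The NF-κB matches of Cxcl1, Cxcl2 and Cxcl3 lie between 97 and 62 bases before the start, and those of Cxcl9 and Cxcl10 begin at 130 and 103 bases; the TATA variant is the 8-letter string shared by Cxcl1, Cxcl2 and Cxcl3.

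In the deposited tables the 6 cluster genes span 146641 bases, all on the plus strand, in the order Cxcl5, Ppbp, Pf4, Cxcl3, Cxcl1 and Cxcl2. Cxcl5 and Ppbp, the largest rises, lie 6892 bases apart, Pf4 and Cxcl3 12717 bases apart, and Cxcl1 and Cxcl2 10777 bases apart. A gap of 103151 bases between Cxcl3 and Cxcl1 holds only Cxcl15, a lung chemokine with 21 counts over the IFN-γ libraries and 9 over the 4-OI libraries, too few to be tested. Cxcl9 begins 1415392 bases after Cxcl2 ends. Fold changes did not follow position alone: Pf4, with the smallest rise of the run, lies between Ppbp and Cxcl3.

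Genes next to the chemokines were not chosen on their values, and here the test applies. Within 500 kb of the cluster 19 other genes were listed and 7 were tested, of which 6 rose with 4-OI and 0 fell (0 fell also at an unadjusted p under 0.05), against 22.7% and 25.4% of all tested genes. By limma-voom and by DESeq2 6 rose as well. The 7 had a median log2 fold change of 2.79. One of the 6 was a predicted gene.

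Afp, which encodes alpha-fetoprotein, a serum protein of fetal liver (90638573 to 90656766, plus strand), stood at 0.910, 1.49 and 1.70 CPM with IFN-γ and at 20.8, 22.0 and 23.7 CPM with IFN-γ+4-OI. It rose by 4.02 ± 0.18 on the log2 scale (edgeR adjusted p = 3.13e-06). Ereg, the growth factor epiregulin (91222476 to 91241508, plus strand), rose from 0.903 ± 0.317 to 8.82 ± 1.13 CPM, by 3.29 ± 0.23 on the log2 scale (edgeR adjusted p = 2.01e-05). Areg, the growth factor amphiregulin, which shares a receptor with epiregulin (91287458 to 91296291, plus strand), rose from 1.20 ± 0.123 to 8.32 ± 1.12 CPM, by 2.79 ± 0.16 (edgeR adjusted p = 8.52e-06). For each of these growth factors and for Afp the groups did not overlap. Ereg shares 3.19% of its exon bases with a predicted gene on the opposite strand, and since the strand setting of the counting is unknown, their reads cannot be told apart there.

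Rassf6 rose from 3.55 ± 0.357 to 12.0 ± 1.53 CPM (log2 fold change 1.77 ± 0.14, edgeR adjusted p = 3.11e-05). Mthfd2l, a mitochondrial enzyme of folate metabolism that begins just after Cxcl2, rose from 2.62 ± 0.358 to 8.65 ± 0.769 CPM (1.73 ± 0.14, edgeR adjusted p = 4.55e-05). Over the 657.719 kb from Afp to Areg all 12 tested genes, 6 of them chemokines, were higher in every 4-OI library. Over all tested genes 28.9% were higher without overlap. The ends of this stretch are the outermost neighbours of the cluster that rose, so they were set by these values and the count is a description. Each of the 6 that are not chemokines passed the filter level, on unscaled CPM, in all 3 IFN-γ libraries. On the far side of Afp, Ankrd17 differed by -0.07 on the log2 scale (edgeR adjusted p = 0.821) and Cox18, just outside the window, by -0.16 (edgeR adjusted p = 0.394). Within the same window Alb had 1 count in all libraries together, the growth factor gene Epgn 1 with IFN-γ and 8 with IFN-γ+4-OI, and Btc 3 and 2. The neighbours that rose were low in level: the highest 4-OI mean among them, that of Afp at 22.2 ± 1.43 CPM, was below that of every chemokine of the run.

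Around Cxcl9 and Cxcl10 the neighbours were mixed. Within 500 kb, 27 other genes were listed and 13 tested, of which 3 rose and 5 fell, beside 22.7% and 25.4% of all tested genes. Over the 13 the median was -0.20 on the log2 scale. The falls were those of U90926 (-2.59 ± 0.14), Shroom3 (-2.21 ± 0.17), Naaa (-1.26 ± 0.09), an acid amidase that breaks down lipid amides, Ppef2 (-0.71 ± 0.15) and Cdkl2 (-0.40 ± 0.13), with edgeR adjusted p from 7.14e-06 to 0.0329. The rises were those of Scarb2, a lysosomal membrane protein (0.82 ± 0.07, edgeR adjusted p = 5.35e-05), Uso1 (0.35 ± 0.09, edgeR adjusted p = 0.0137) and a predicted gene. The call of Cdkl2 was lost under 6 alternatives, one of them DESeq2 (-0.39, adjusted p = 0.0577), and that of Uso1 under 2, one of them total counts only (0.09, adjusted p = 0.511). U90926 shares 48.5% of its exon bases with a predicted gene on the opposite strand.

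**Figure D4:**
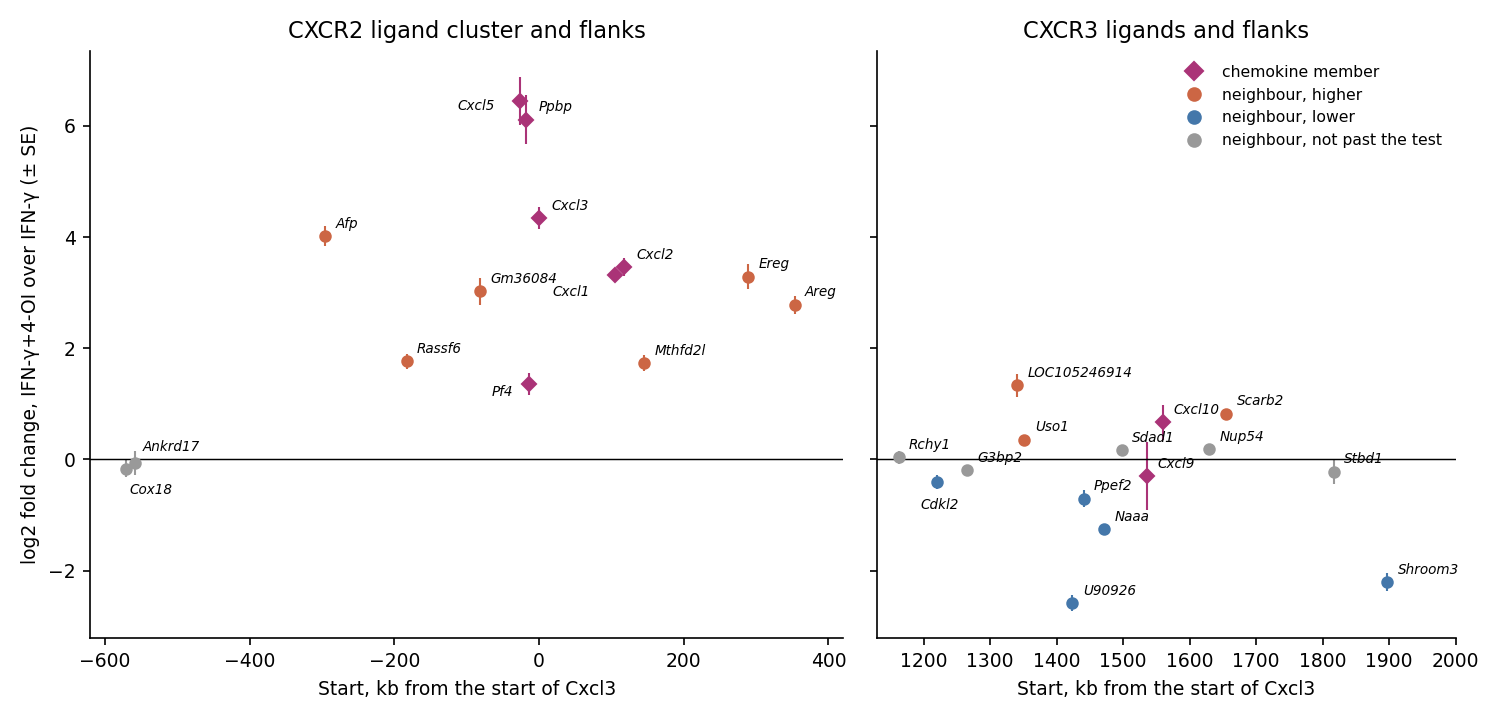
Log2 fold change (± SE) of the tested genes around the cluster (left) and around Cxcl9 and Cxcl10 (right), all but Cox18 within 500 kb, by the distance of its start from that of Cxcl3 in kb. From Afp to Areg, the outermost neighbours of the cluster that rose, all 12 points lie above 0, while the points around Cxcl9 and Cxcl10 lie on both sides.

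Of the receptors, Cxcr2 itself, the receptor of the 5 ligands (chromosome 1, 74193153 to 74200405), fell. It stood at 43.7, 44.3 and 43.6 CPM with IFN-γ and at 9.77, 9.70 and 12.5 CPM with IFN-γ+4-OI, and differed by -2.04 ± 0.12 on the log2 scale (edgeR adjusted p = 8.11e-06). The ligands were thus higher in the group in which their receptor was lower. Cxcr1, the other neutrophil receptor of this family, and Cxcr3, the receptor of Cxcl9 and Cxcl10, were below 1 CPM in every library, and Ackr1, a decoy receptor, had no counts. Of 4 tested receptors 2 fell in edgeR and limma-voom and 1 in DESeq2, beside 25.4% of all tested genes in edgeR. By each of these tools 0 rose, and 1 was higher at an unadjusted p under 0.05. The other, Cxcr5, fell by 0.58 ± 0.17 on the log2 scale (edgeR adjusted p = 0.0242), a call lost under 5 alternatives, with adjusted p up to 0.0974. Cxcr4, the receptor of Cxcl12, differed by 0.18 ± 0.08 (edgeR adjusted p = 0.0868), by -0.08 under total counts only and by 0.13, with an adjusted p of 0.00929, without both libraries that stood apart.

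Cxcr2 also marks neutrophils, which dendritic cell cultures from bone marrow can hold. Of 14 neutrophil markers, all tested, 2 rose (Ly6g and S100a8) and 9 fell, beside 22.7% and 25.4% of all tested genes. The median of the 14 was -0.77 on the log2 scale. Mpo (-3.19 ± 0.21) and Elane (-2.18 ± 0.23) were among the falls. The summed level of the 14 was 3661 to 4386 CPM with IFN-γ and 3985 to 4670 CPM with IFN-γ+4-OI. Most of it came from Mmp8 (means of 1952 and 1966 CPM), S100a9 (773 and 629) and S100a8 (569 and 1099). The part of these cells in the ligand levels was not tested. Of the other CXC ligands 6 were measured and 1 was tested, Cxcl16, at 298 ± 33.6 and 329 ± 27.9 CPM (0.14 ± 0.11 on the log2 scale, edgeR adjusted p = 0.328, and -0.12 under total counts only); 0 passed at an unadjusted p under 0.05 either. Cxcl13, Cxcl14, Cxcl15 and Cxcl17 were below 1 CPM. Cxcl11 was not analysed here.

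The IFN-γ signalling list holds the receptor chains, kinases and factors through which IFN-γ reaches Cxcl9 and Cxcl10, and the feedback inhibitors Socs1 and Socs3. Of its 11 genes 9 fell and 0 rose in edgeR, limma-voom and DESeq2, and 0 were higher at an unadjusted p under 0.05; over all tested genes 25.4% were called lower and 22.7% higher. The median of the list was -0.90 on the log2 scale, against -0.0082 over all tested genes. Socs3, a feedback inhibitor, fell by 1.50 ± 0.08 on the log2 scale (edgeR adjusted p = 7.23e-06) and Irf9, a factor of interferon responses, by 1.02 ± 0.08 (edgeR adjusted p = 3.81e-05). Cxcl10 did not fall with this list: its log2 fold change was 0.67 ± 0.32, and 0.25 to 1.09 over all alternatives. That of Cxcl9 was -0.30 ± 0.61, and the libraries of both genes overlapped between groups.

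Of 22 genes in the NF-κB pathway 4 rose, 5 fell and the median was -0.02, counts near those over all tested genes (22.7% higher and 25.4% lower). Ikbkg, the regulatory subunit of the IκB kinase, rose from 105 ± 8.52 to 331 ± 20.0 CPM (1.66 ± 0.09, edgeR adjusted p = 7.88e-06); 51 of its exon bases overlap G6pdx on the opposite strand. Nfkb1 fell by 0.75 ± 0.09 (edgeR adjusted p = 2.70e-04) and Tnfaip3, an inhibitor of the pathway and a target of it, by 0.59 ± 0.09 (edgeR adjusted p = 8.66e-04).

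AP-1, C/EBP factors and MAP kinases act beside NF-κB on these promoters; of 21 such genes 7 rose, 3 fell and the median was 0.18, beside 22.7% higher and 25.4% lower over all tested genes. Jun rose by 1.10 ± 0.08 (edgeR adjusted p = 2.03e-05) and Atf3, a stress-induced factor, by 0.99 ± 0.08 (edgeR adjusted p = 4.64e-05), while Egr1, an early growth response factor, fell by 1.32 ± 0.12 (edgeR adjusted p = 6.15e-05). Messages of these chemokines are short-lived, and of 14 genes of mRNA decay 1 rose and 3 fell, beside 22.7% and 25.4% of all tested genes. By DESeq2, with upper quartile factors and with a replicate block 5 of them fell. Arid5a, which stabilises inflammatory messages, fell from 28.0 ± 1.86 to 13.2 ± 1.50 CPM (-1.08 ± 0.11, edgeR adjusted p = 1.35e-04), and Traf3ip2, the adaptor through which IL-17 stabilises Cxcl1, by 0.57 ± 0.10 (edgeR adjusted p = 0.00213). The 1 rise was that of Zfp36l2, a decay factor (0.30 ± 0.08, edgeR adjusted p = 0.016), a call lost under total counts (0.04, adjusted p = 0.740) and without IFN-γ replicate 3 (0.27, adjusted p = 0.0639).

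Of 10 tested genes for other signals that bring or mobilise neutrophils 4 rose and 4 fell, where 48.1% of all tested genes were called, 22.7% higher and 25.4% lower. Il1a, an alarm cytokine, rose from 285 ± 14.9 to 564 ± 23.6 CPM (0.98 ± 0.09, edgeR adjusted p = 5.46e-05). Tnf fell from 131 ± 16.0 to 62.8 ± 2.09 CPM (-1.06 ± 0.11, edgeR adjusted p = 1.16e-04), and Csf3, the growth factor of neutrophils, from 11.2 ± 1.82 to 4.18 ± 0.118 CPM (-1.42 ± 0.14, edgeR adjusted p = 1.27e-04). Csf3 shares 22.2% of its exon bases with a predicted gene on the opposite strand, and Il1a 11.2%.

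Proteases trim these chemokines and so make them more or less active. Of 11 tested, 2 rose, 7 fell and the median was -0.42, beside 22.7% and 25.4% of all tested genes. Mmp12, a macrophage elastase that cuts ELR chemokines, rose from 3328 ± 208 to 8756 ± 579.7 CPM (1.40 ± 0.11, edgeR adjusted p = 3.81e-05). Ctsg, cathepsin G, which cuts the Ppbp precursor, fell from 7.42 ± 0.915 to 2.62 ± 0.0463 CPM (-1.50 ± 0.14, edgeR adjusted p = 7.16e-05). Dpp4, which trims Cxcl9 and Cxcl10, fell from 6.89 ± 1.16 to 1.86 ± 0.226 CPM (-1.88 ± 0.17, edgeR adjusted p = 8.07e-05).

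**Figure D5:**
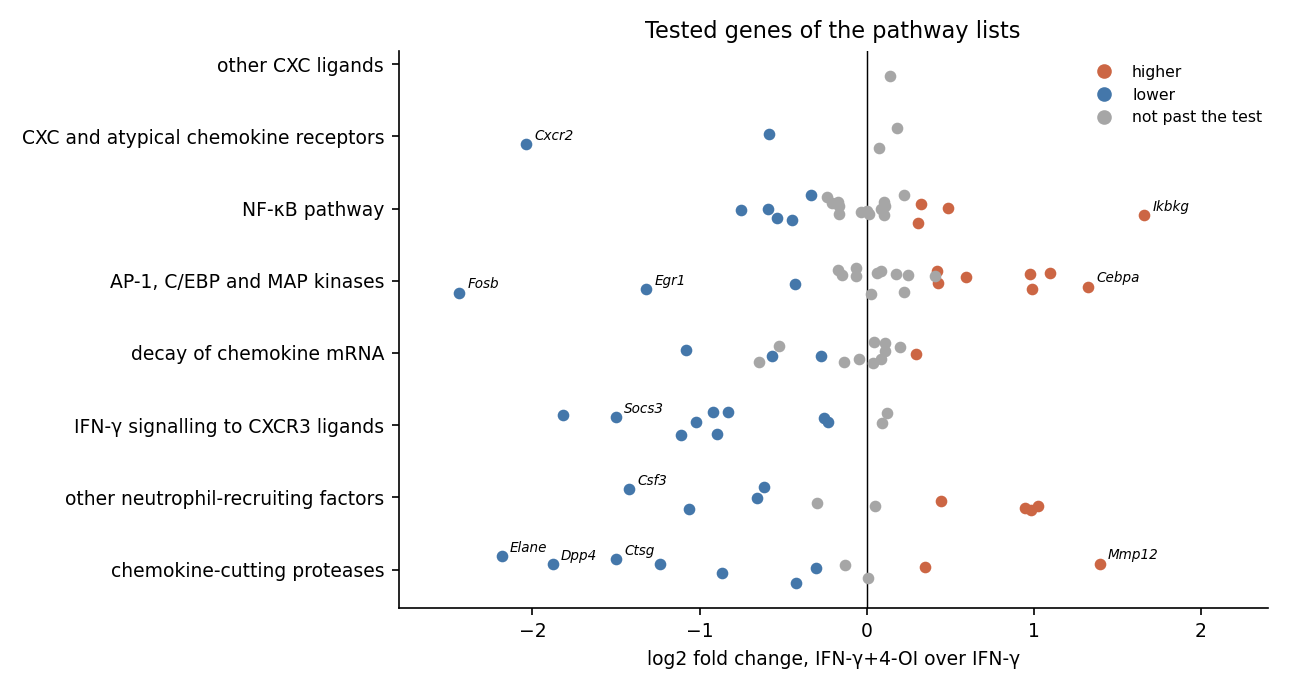
Log2 fold change of each tested gene of the 8 pathway lists, coloured by the edgeR call; most genes beyond 1.3 on the log2 scale are named. The IFN-γ signalling points lie mostly left of 0, with 9 of 11 called lower, and the NF-κB points on both sides, with 4 called higher and 5 lower.

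The mean profile of the 5 CXCR2 ligands over the 6 libraries was compared with every tested gene by the root mean square difference of centred log2(CPM + 1) values. Of the ligands Cxcl3 lay closest to their mean (0.192), and Cxcl2 (0.617), Cxcl1 (0.701), Cxcl5 (0.709) and Ppbp (0.786) lay farther off. The 5 other genes with the smallest difference were Prdx1 (0.185), Cyp4a12a (0.199), Shisa4 (0.247), Gssos2 (0.321) and Srxn1 (0.377). Prdx1, a peroxiredoxin that removes hydrogen peroxide, stood at 859, 1169 and 1407 CPM with IFN-γ and at 22170, 21316 and 27484 CPM with IFN-γ+4-OI. Like Cxcl3, it was highest in replicate 3 of each group, and its group means differed 20.7-fold. Srxn1, sulfiredoxin, which repairs oxidised peroxiredoxins, went from 46.5 ± 7.76 to 729.8 ± 19.6 CPM, and Shisa4 from 0.768 ± 0.550 to 56.0 ± 7.87 CPM. Cyp4a12a has a close relative, and 7.71% of the exon bases of Gssos2 overlap Gss, transcribed the other way, so the counts of both are uncertain. These genes were picked for their likeness in this comparison, which is given as a description.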

How the data were processed

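Messenger RNA of 6 libraries was compared, 3 given IFN-γ and 3 given IFN-γ+4-OI, grouped and numbered by their titles. Per the file headers, the authors deposited counts and TPM for the same 36706 genes in each library. Recomputing the deposited TPM from counts and gene lengths gave the same values within a relative tolerance of 1e-06. Reads were aligned with HISAT2 and the build was mm10, per the submitters' processing notes. Which program counted the reads, with which strand setting and annotation, is not given in the sources used here. Of 35272 genes matched to RefSeq on GRCm38, 23420 had the same span but 827 shared a start or end, so gene coordinates are printed as deposited, on an assembly that may differ, and promoters on GRCm38.p6.

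Counts were tested with edgeR 4.0.16 (limma 3.58.1, R 4.3.3): filterByExpr, TMM factors, the robust quasi-likelihood test and Benjamini-Hochberg adjustment over 14011 genes at 0.05. CPM are TMM-scaled, given as mean ± SD over 3 libraries, and log2 fold changes with their SE. All pairs of replicates differed by more than sampling noise (lowest chi-square per gene 3.25). Alternatives were RLE, upper quartile and no factors, other filters, limma-voom, DESeq2 1.42.0, a replicate block, an adjusted p of 0.01 and libraries left out. For members a ratio of mean TPM was also taken. Neighbour windows of 250 and 1000 kb were added after seeing the data. The fit was tested on simulated counts.

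The members and lists were chosen with earlier results of these data known. Genes named are all members and the 3 genes of each pathway list with the smallest adjusted p. Also named are each tested neighbour within 500 kb that passed the threshold (predicted genes only counted) and the 5 genes most like the CXCR2 ligands. Neighbours, markers and listed genes named beyond these were chosen after their values were seen. Values of a few listed genes are left out of the text.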

Additional observations from a re-analysis of the deposited data

How the results depend on the processing

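The groups of the 5 CXCR2 ligands and of Pf4 kept their direction under every alternative run. The Cxcl5 and Ppbp folds rested most on 1 library, IFN-γ replicate 3. As a ratio of mean TPM the folds were 15.5 for Cxcl3, 8.43 for Cxcl2, 7.65 for Cxcl1 and 1.97 for Pf4. Under total counts only, those of Cxcl3, Cxcl2 and Cxcl1 were 16.9, 9.16 and 8.30. The log2 ratio of the summed CXCR2 ligands, 4.03, was 3.77 under total counts only, 3.79 without both libraries that stood apart, and 3.91 to 4.17 with 1 library left out. Under total counts only, 1719 genes were called higher and 5452 lower, in place of 3181 and 3555, and of the pathway list genes 7 were higher and 51 lower, in place of 18 and 33. At an adjusted p of 0.01, 2079 genes were called higher. Leaving out 1 library gave 5275 to 7835 calls, 13 to 21 pathway list genes higher and 27 to 41 lower. Counts for single lists moved most for the NF-κB pathway (1 to 8 higher, 4 to 11 lower over all alternatives) and mRNA decay (0 to 4 higher, 2 to 8 lower); for IFN-γ signalling they were 0 to 1 higher and 7 to 9 lower. Neighbours of the cluster called higher numbered 5 to 7 over all alternatives, 5 of 5 tested within 250 kb and 6 of 8 within 1000 kb. Cxcr4, 0.18, turned to -0.076 under total counts only and was called higher (0.13, adjusted p = 0.00929) without both libraries that stood apart; Cxcl16, 0.14, turned to -0.12 and -0.019 under the same settings, and the cause was not tested.

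Replicate numbers are shared between groups, but the labels do not say that they pair libraries. The deviations of same-numbered libraries correlated at 0.26, -0.10 and 0.19, and IFN-γ replicate 2 correlated best with IFN-γ+4-OI replicate 3 (0.31). With the replicate block 7513 genes were called, 3588 higher and 3925 lower, with 19 pathway list genes higher and 35 lower and 9 neighbours higher and 5 lower. The ligand sums have no block value because they come from no test.

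Cxcl9 rests on 87 and 63 counts and Cxcl5 with IFN-γ on 167. The SE of the log2 fold change of Ppbp, with 840 counts with IFN-γ, was 0.44, close to the 0.43 of Cxcl5. The data hold 1 time point, and no protein, binding or migration was measured.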
